A study of Homo sapiens with 8 samples.

Results

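Very long introns were taken as the splice junctions that the deposited tables mark as annotated, that span at least 100000 nt, and that at least 20 uniquely mapped reads crossed over all libraries together. This left 676 introns of the 159531 annotated junctions with at least 20 reads, and of 654181 junctions in all. They lie in 530 genes or groups of overlapping genes. The members were selected on length and on their own reads, so length and summed reads are described below without a test; the difference between the groups played no part in the choice. The cells were HEK293, an established human embryonic kidney line. One group had received the splicing modifier LMI070 (branaplam) at 25 nM and the other its solvent DMSO, and the labels give no treatment time. Both groups comprised 4 libraries of ribosome-depleted total RNA, numbered as replicates 9, 10, 11 and 12 (DMSO) and 13, 14, 15 and 16 (LMI070). The library names give a sequencing lane, 8 for replicates 9, 10, 14 and 15 and 7 for the others, and the tests hold a term for it. The labels do not say whether the libraries came from separate cultures, so every p below measures the spread between these libraries, which may be technical.

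An intron is cut out of the transcript in 2 steps, after the 5′ splice site (donor) and the 3′ splice site (acceptor) have been paired. In a very long intron the polymerase reaches the acceptor long after it has made the donor, and many decoy sites lie between them. Such introns are common in genes for cell adhesion, synapses, the cytoskeleton and developmental transcription factors. LMI070 was developed for SMN2 and strengthens pairing of U1 snRNA with weak donors, so that exons which are otherwise skipped can be included.

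The sequences below show the exon bases that 8 of these splices join. They are the 6 introns with the most reads among those in 1 gene and between coding exons, and the 2 introns called in the test of splice site use. Each line holds the last 15 bases of the upstream exon and the first 15 of the downstream exon in GENCODE 29 transcripts, 5′ to 3′, and capitals mark the 3 bases on each side of the splice.
CDH2: agcctcttctcaATGTGAagtttagcaact
MBNL1: tttgattcattgAAAGGCcgttgctccagg
HMGA2: agacctaggaaaTGGCCAcaacaagttgtt
STX8 upstream: tggatgaacaaaATGAGAtaattgacgacc
STX8 downstream: agtcagcctcttGTGGGAtgatcatggtga
MSI2: cgagcgcaacccAAGATGgtcacaagaaca
ARL15: tacatggattatCTGTGTtttagagcactt
GNAQ: tatgagcacaatAAGGCTcatgcacaatta
All 676 introns matched an intron of GENCODE 29 and had exon sequence there. The upstream exon ended in G at 566 of them (83.7%), against 80.8% to 83.1% in the 3 shorter length classes. An end in GA stood at 9 (1.33%), against 1.5% to 1.6% in shorter introns. Those 9 introns had 2070 reads, with a median log2 difference between LMI070 and DMSO of -0.11, and none was called in either test of reads. These shares are descriptions and were not tested.

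The introns were 100021 to 263850 nt long, with a median of 122300 nt, and 114 of them were at least 150 kb. A median of 36.4% of the host gene's span was taken up by the one intron, and 193 introns took up more than 50% of it. First introns of some transcript made up 350 (51.8%), against 39.8% of junctions of 10 to 100 kb and 25.7% of those of 1 to 10 kb. Coding exons flanked 501 introns in at least one transcript, 118 lay in 5′ untranslated regions without that, and 53 lay in noncoding transcripts alone. The terminal dinucleotides were GT-AG in 672, GC-AG in 3 (TBC1D4, MBD5 and TENM1) and AT-AC in 1, the last in DIAPH2, which encodes an actin-nucleating formin. Of the hosts, 416 had 1 such intron, 89 had 2 and 25 had 3 or more. DIAPH2 had the most, 5 introns with 110 to 498 reads. SPIDR, PRKG1, ERC2, TBC1D5 and ANKS1B had 4 each, and EXOC4 was among those with 3.

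Together the 676 introns held 185838 reads, with a median of 133 per intron and a range of 20 to 2662. At least 100 reads crossed 385 of them, and at least 1000 crossed 35. They made up 0.0922% to 0.0958% of annotated junction reads in DMSO libraries and 0.0928% to 0.0954% in LMI070 libraries, so the ranges overlapped. Multiply mapped reads were 1.63% ± 0.04 (SD, n = 4) of their reads in DMSO and 1.67% ± 0.12 in LMI070, below the 2.37% and 2.42% of all annotated junctions. The length threshold fell between CUX1 with 100021 nt and 595 reads and SBF2 with 100027 nt and 231 reads on the inside, and PLCE1 with 99921 nt and 147 reads and AL365295.1 with 99975 nt and 33 reads on the outside. At the read threshold 17 introns had exactly 20 reads and 11 junctions of at least 100 kb had 19. Of those with 20 reads, SRPK2 (184862 nt) and CDH13 (173536 nt) were the longest, and CCNY (164293 nt) and HECW2 (159313 nt) were the longest with 19.

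The most-read intron, chr18:28013910-28147672 on the minus strand of GRCh38 (the build of all coordinates here), lies in CDH2, which encodes N-cadherin, a calcium-dependent cell adhesion protein. It had 14.2, 13.9, 12.7 and 12.998 RPM (reads scaled to the library's total of uniquely mapped junction reads) in DMSO replicates 9 to 12. In LMI070 replicates 13 to 16 it had 13.5, 13.8, 13.2 and 12.1, so the groups overlapped (log2 difference -0.03, SE 0.08, adjusted p = 0.96 by edgeR). The other introns of CDH2 had a median of 3054 reads, which puts this intron at a ratio of 0.872.

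Second was an intron of DTD1, a D-aminoacyl-tRNA deacylase gene, that also belongs to the read-through gene AL121900.2. It had 12.97, 12.6, 13.5 and 14.2 RPM in DMSO and 12.4, 13.5, 11.6 and 12.2 in LMI070. MBNL1, a regulator of alternative splicing, had an intron of 114573 nt with 7.83, 10.3, 7.98 and 9.87 RPM in DMSO and 8.66, 9.28, 9.82 and 8.95 in LMI070. The intron of HMGA2, a gene for an architectural chromatin protein, had 9.15, 9.54, 7.70 and 8.47 in DMSO and 8.88, 9.67, 9.47 and 7.83 in LMI070. In each of these the groups overlapped.

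STX8, a syntaxin of the endosomal membrane fusion machinery, had 2 successive introns of this size, of 113175 nt and 127906 nt. They had 1736 and 1712 reads, and the gene's other introns a median of 1820. MSI2, an RNA-binding protein gene, had 1690 reads at a ratio of 1.67 to its other introns. C7orf50 was next with 1628 reads. The log2 differences of these 8 introns lay between -0.10 and 0.12, and the plot of RPM by library shows that the groups overlapped in each.

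**Figure D1:**
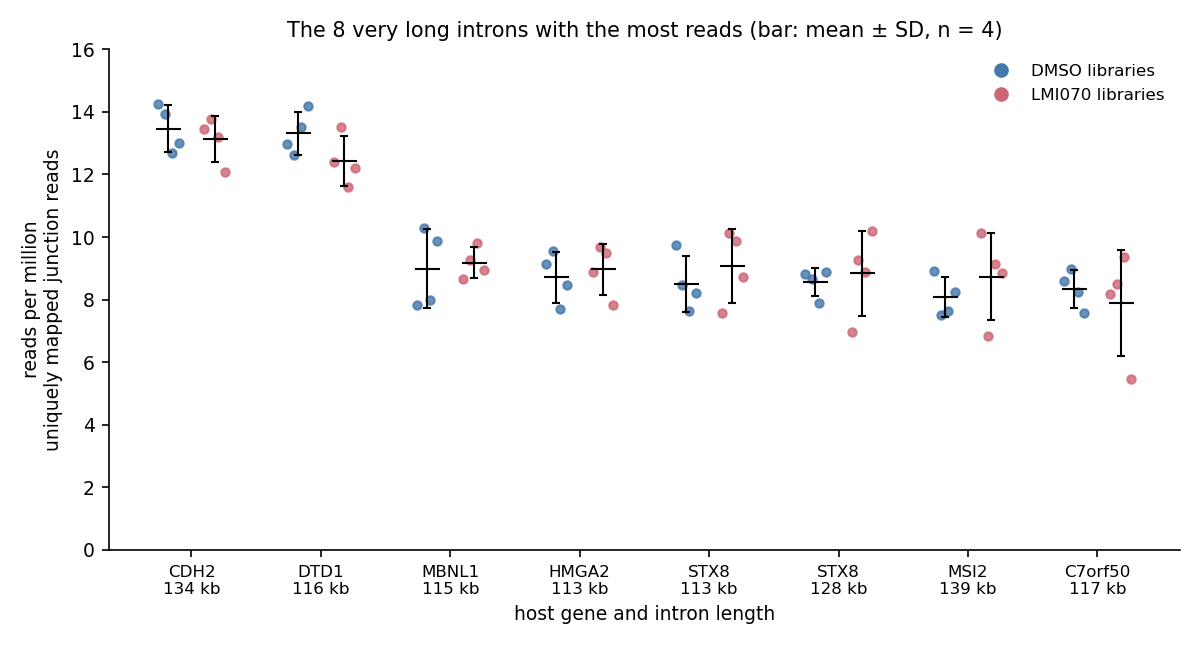
Reads scaled to the library's uniquely mapped junction reads, in RPM (vertical axis) for the 8 very long introns with the most reads (horizontal axis: host gene and length), with a point for each of the 4 DMSO and 4 LMI070 libraries and a bar for the mean ± SD. CDH2 and DTD1 stand highest, and the points of both groups overlap for each intron.

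Reads of each intron were set against the other introns of its host gene, as its reads divided by the median over the gene's other annotated junctions with at least 20 reads. With at least 3 such junctions the ratio could be taken for 623 of the 676 introns. The median ratio was 0.70, with quartiles of 0.310 and 1.09. It was 1.03 for introns under 1 kb, 1.01 for 1 to 10 kb and 0.834 for 10 to 100 kb. The read minimum removes members with a low ratio in weakly read genes, so the share of low ratios among all long introns is not given by these members. In single libraries the median ratio was 0.694 ± 0.025 (SD, n = 4) in DMSO and 0.673 ± 0.038 in LMI070.

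Where neither site was shared with another annotated junction, the median ratio was 0.915 over 212 very long introns and 1.01 over 6952 introns of 10 to 100 kb. Where a site was shared it was 0.565 over 411 and 0.589 over 11284. First introns had 0.576 over 322, against 0.816 over 301 that were never first. The plot of ratio by intron length shows both splits: shared sites and first position go with lower ratios in every length class. Under 1 kb the medians were 0.776 with a shared site and 1.07 without. First introns under 1 kb had 1.00, against 1.04 for those never first. Reads crossing a junction fall where transcripts start or splice elsewhere, and the part of either in these ratios was not tested.

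**Figure D2:**
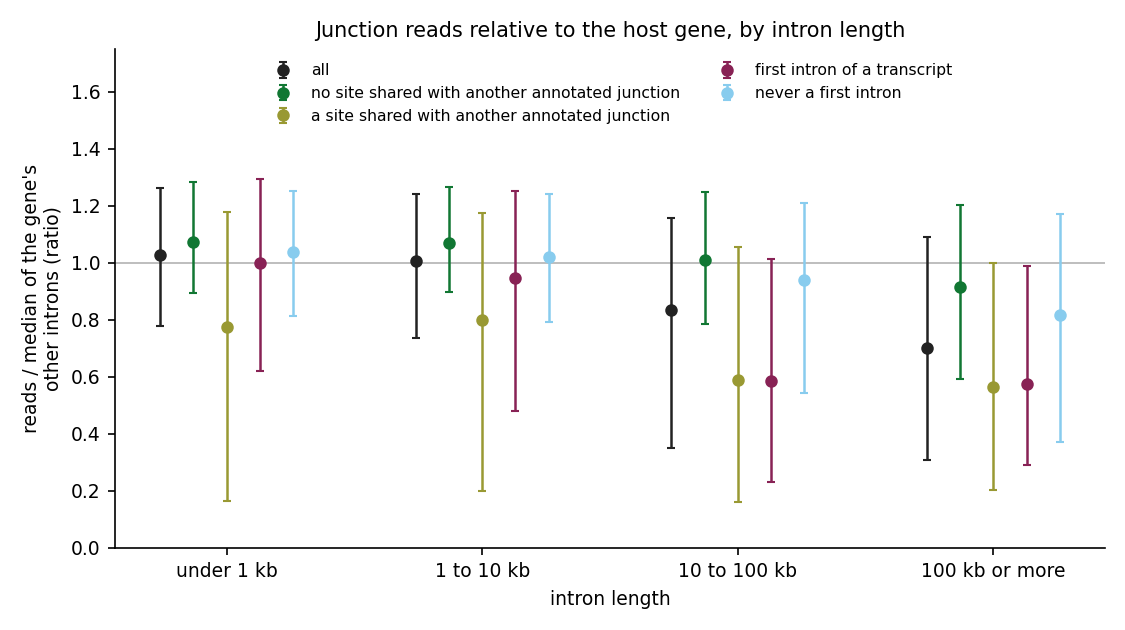
Reads of a junction divided by the median of its gene's other annotated introns (vertical axis) by intron length class (horizontal axis), as medians (points) with quartiles (bars) over all 8 libraries. The median over all introns goes from 1.03 under 1 kb to 0.70 at 100 kb or more, and to 0.915 at 100 kb or more where no site is shared.

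Among introns with at least 100 reads and at least 3 other measured introns, the highest ratios were in IQCJ-SCHIP1 (7.58), C7orf50 (5.43), MIR4435-2HG (5.28), ASTN2 (5.13), NRXN3 (4.33) and MBD5 (4.28). NRXN3 encodes a presynaptic adhesion protein, MBD5 a chromatin protein with a methyl-CpG-binding type domain, and MIR4435-2HG is a noncoding host of a microRNA. The lowest were in MID1 (0.026), CADM1 (0.046 and 0.083), EPB41L2 (0.0997), TBL1XR1 (0.103) and TBC1D1 (0.106). MID1 encodes a microtubule-bound ubiquitin ligase, and the long intron took 2.20% of the reads at its sites in DMSO. In EPB41L2, a gene of the membrane skeleton, 2 introns of this size share one site, and the one with the low ratio took 12.05%. All 6 of the low introns were first or second introns of the transcripts that hold them.

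Pairs of very long introns in the same gene, both without a shared annotated site, gave a check of how even such reads are along a transcript. There were 32 pairs in 21 genes, and the larger count was a median of 1.53 times the smaller. In 15 pairs the ratio was at most 1.5. DIAPH2 was among the most even, with 411, 404 and 387 reads, and CCSER1 had 220 and 224. PRKG1, a cGMP-dependent kinase gene, was the least even, with 23 and 220.

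Many annotated introns of this size had no read. GENCODE 29 lists 4807 introns of at least 100 kb, of which 1551 had a read. Of all 4807, read or not, 1180 exceed 3 windows of 65536 nt. Among the longest members were CADM1 (263850 nt, 352 reads), LPP (252090 nt, 21 reads), RABGAP1L (243229 nt, 31 reads), NCAM1 (240714 nt, 37 reads), MECOM (237354 nt, 64 reads), ARL15 (226488 nt, 71 reads) and PLCB1 (221010 nt, 122 reads). Their ratios to the host's other introns lay between 0.054 and 0.198. CADM1 and NCAM1 encode immunoglobulin-like adhesion proteins, and MECOM a transcription factor.

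After these values had been seen, introns were split by the number of boundaries of successive 65536-base windows, counted from the start of the chromosome, that lie between their flanking exon bases. Only introns present in at least 50% of a gene's transcripts were used here, in genes whose other introns had a median of at least 100 reads. Introns crossing 1 boundary had a median ratio of 0.854, and 21 of 23 had a ratio of at least 0.1. Those crossing 2 had 0.905, and 77 of 84 did. With 3 boundaries the median was 0 and 1 of 33 reached 0.1 (RCAN2, 0.201), and with 4 or more none of 15 had a read. Over all annotated introns of such genes, rare ones included, the medians were 0.018 and 0.025 at 1 and 2 boundaries, where 65 of 174 and 366 of 891 reached 0.1. At 3 boundaries 7 of 317 did, and at 4 or more 1 of 201.

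The same split was made at matched length. Among introns between 2 and 3 windows long (131 to 197 kb), 29 crossing 2 boundaries had a median ratio of 0.786, and 26 reached 0.1. The 19 crossing 3 had a median of 0, and none reached 0.1. SLIT2, a gene for an axon guidance ligand, had no read across 198870 nt while its other introns had a median of 1560. PTPRG, a receptor phosphatase gene, had none across 186505 nt beside a median of 862.5. GPC6, a glypican gene, had none across any of 4 introns of 197183 to 317646 nt, beside a median of 472. EXT1, a heparan sulfate polymerase gene, had none across 272883 nt beside 816. In RAD51B, a gene of homologous recombination, 404679 nt had none beside 328.

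Reads of introns crossing 3 boundaries numbered 56 in DMSO and 60 in LMI070, so the pattern stood in both groups. Of the 676 members, 93 crossed 1 boundary and 562 crossed 2, while 17 crossed 3 and 4 crossed 4. The median ratio of the last 2 sets was 0.078 and 0.083. The alignment settings are not given in the sources used here, and their part in this pattern was not tested. No read of an intron therefore cannot be told apart from an intron that is not spliced. Members crossing 3 or more boundaries, CADM1 and ARL15 among them, may be undercounted in all libraries alike.

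**Figure D3:**
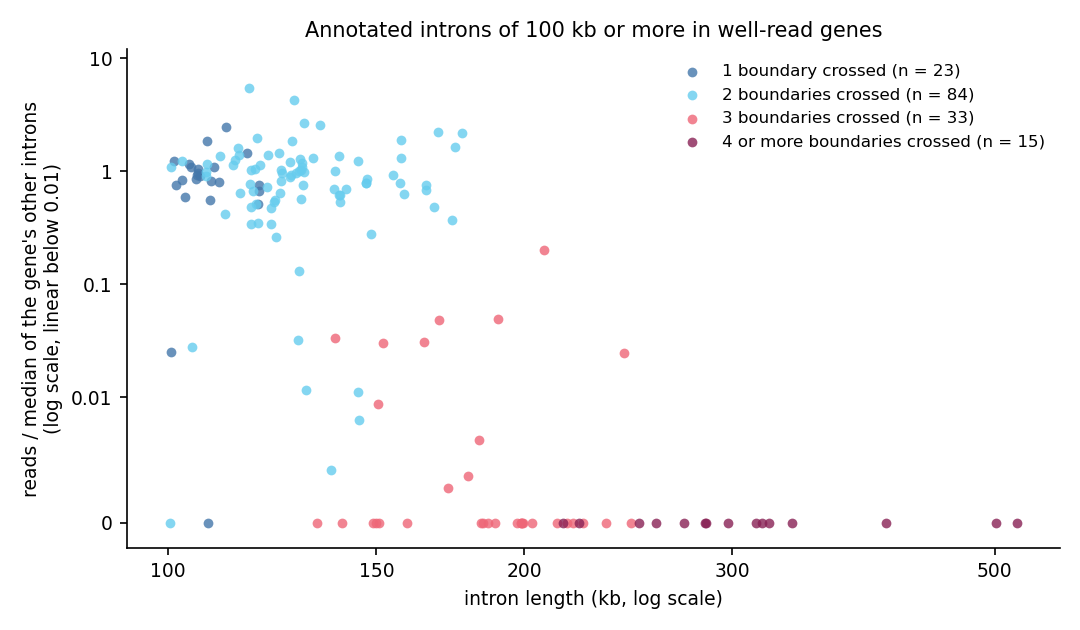
Ratio of reads to the median of the gene's other introns (vertical axis, log scale, linear below 0.01) against intron length (horizontal axis, log scale) for introns of 100 kb or more found in at least 50% of the transcripts of genes with a median of at least 100 reads. Points are introns, coloured by the number of 65536-base window boundaries crossed: those crossing 1 or 2 lie mostly near 1, those crossing 3 or more lie mostly at 0.

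Between LMI070 and DMSO, no very long intron was called in the edgeR quasi-likelihood test of junction reads at an adjusted p under 0.05. Over all annotated junctions 331 of 159531 were called, which is 0.207%. At an unadjusted p under 0.05 there were 44 members, 21 higher and 23 lower, or 6.51% against 7.51% of all junctions. DESeq2 called none of the members either, with 17 at an unadjusted p under 0.05. The median log2 difference was 0.01 over the members and 0.00 over all junctions, with member quartiles of -0.19 and 0.17. The depth sets how small a difference could be seen: the median SE of the log2 difference was 0.19 in members with at least 100 reads and 0.50 in those with fewer.

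The smallest adjusted p values were those of MRPS28 and DYNC1I1. MRPS28 encodes a mitochondrial ribosomal protein. Its intron of 110887 nt had 0.501, 0.711, 0.592 and 0.861 RPM in DMSO and 0.471, 0.233, 0.245 and 0.0932 in LMI070, with no overlap (log2 difference -1.23, SE 0.35, adjusted p = 0.161). The intron took 3.66% of the reads at its sites in DMSO. DYNC1I1 encodes a dynein intermediate chain. Its intron of 107513 nt had 0.637, 0.823, 0.829 and 0.815 in DMSO and 0.221, 0.699, 0.147 and 0.373 in LMI070 (log2 difference -1.11, SE 0.32, adjusted p = 0.189). Without LMI070 replicate 14 the log2 difference was -1.73 and its adjusted p 0.013, the one call among members in any of the alternatives run for this test. Over the libraries left out in turn the difference ranged from -1.73 to -0.86, and lane 8 alone gave -0.69 (adjusted p = 0.98).

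Every LMI070 library lay above every DMSO library in 10 members (1.48%; 1.65% of all annotated junctions), among them FRAS1, SRGAP1, CELF2 and SSBP2. Every LMI070 library lay below in 8 members (1.18%; 1.63% of all), among them MRPS28, AVEN, TBC1D5 and FHOD3. These names were picked after their values had been seen. In CELF2, which encodes an RNA-binding splicing regulator, the values were 3.50, 4.12, 3.32 and 3.22 in DMSO and 4.18, 4.23, 4.27 and 4.24 in LMI070 (log2 difference 0.25, SE 0.12, adjusted p = 0.64). AVEN, which encodes an apoptosis inhibitor, had 3.23, 3.18, 3.36 and 2.99 in DMSO and 2.63, 2.56, 2.80 and 2.52 in LMI070 (log2 difference -0.29, SE 0.14, adjusted p = 0.64). Both shares of members were near those over all junctions.

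**Figure D4:**
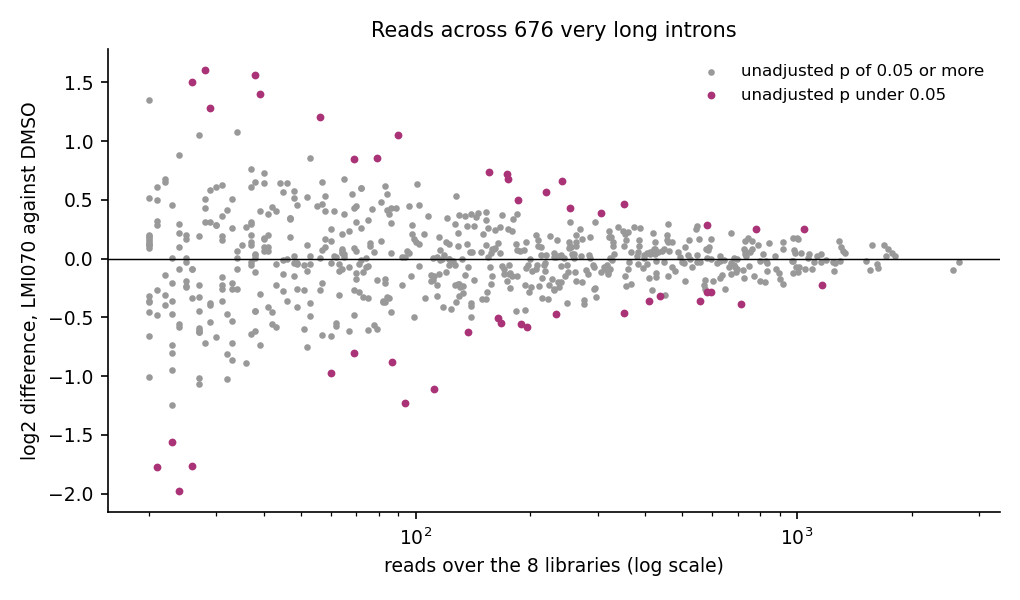
Log2 difference in reads between LMI070 and DMSO (vertical axis) against reads over the 8 libraries (horizontal axis, log scale) for the 676 very long introns, 1 point each. Coloured points have an unadjusted p under 0.05; they number 44, and none passed adjustment.

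Set against the other junctions of the host gene in the same library, 643 members could be tested. None was called, against 56 of 150854 junctions (0.0371%). An unadjusted p under 0.05 was found for 41 (6.38%), of which 20 were higher, against 5.39% of all junctions tested. DESeq2 called none, with 12 at an unadjusted p under 0.05. The remaining 33 were not tested, 9 because they lie in several genes and 24 because the rest of the gene had too few reads. The smallest adjusted p was 0.519.

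The use of splice sites was the readout in which members were called. Usage is the share of a junction among all reads that use either of its sites. The log2 differences given with usage are those of the odds, the junction's reads against all other reads at its sites. They are not log2 differences of the percentages. Of 414 members with enough competing reads, 2 were called, both lower (0.144% of all 129500 junctions tested were called). The others comprised 86 members without any competing junction and 176 with too few reads at the sites. A median of 91.9% of site reads in DMSO fell to the tested members, and 183 of them had more than 95%. One of the called members moved by at least 10 percentage points, as did 86 of all 187 called junctions. In this edgeR test 12 members (2.90%) had an unadjusted p under 0.05, 2 higher and 10 lower, against 3.10% of all junctions tested. The share of members was thus near that over all junctions.

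The first was the intron of ARL15 at chr5:54171929-54310431, 138503 nt on the minus strand. ARL15 encodes a small GTPase of the ADP-ribosylation factor-like family. The DMSO libraries had a usage of 90.7%, 90.7%, 96.5% and 96.7%, the LMI070 libraries one of 67.7%, 71.2%, 69.0% and 66.7%, and the groups lay apart (log2 difference -2.73, SE 0.49, adjusted p = 3.5e-05). In lane 7 alone the adjusted p was 0.0088 and in lane 8 alone 0.947, with log2 differences of -3.71 and -2.03. Its RPM did not pass the test of reads (log2 difference -0.36, SE 0.16, adjusted p = 0.61).

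The competing junction was annotated. It leaves the same donor and ends 2485 nt downstream, chr5:54307947-54310431, at an exon of 59 nt that lies inside the long intron. It had 1, 2, 0 and 1 reads in DMSO and 31, 16, 15 and 18 in LMI070. Its usage was 1.74% ± 1.26 (SD, n = 4) in DMSO and 28.6% ± 2.5 in LMI070 (log2 difference 4.33, SE 0.64, adjusted p = 1.8e-08). It stayed called in each lane alone, with adjusted p values of 0.00064 and 0.036, and without a read minimum (8.3e-05). It was the 1 call among 229 other annotated junctions tested at member sites. Both ARL15 junctions draw on the reads of the same donor, so their calls are not separate results.

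The far side of that exon is an annotated intron of 153248 nt, itself over 100 kb but with too few reads to be a member. It had 0 reads in every DMSO library and 2, 3, 2 and 3 in LMI070. These are 10 reads, against 80 LMI070 reads of the junction into the exon. No read joined the exon to the acceptor of the long intron. An unannotated junction of that length could not be seen, since none in the files exceeds 20000 nt. The bases at the donor of the 153248 nt intron are shown because the exon is the one used in the LMI070 libraries. Capitals again mark 3 bases on each side of the splice.
ARL15 exon of 59 nt: gctgaatggattAGAGTTttagtattaaag
The exon ends in AGA. In GENCODE 29 it lies in the 5′ untranslated region of the transcript used. The gene's other member, 226488 nt long, crosses 3 boundaries and had too few reads for the usage test.

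The second was GNAQ, at chr9:77815771-77922160, 106390 nt on the minus strand. GNAQ encodes the alpha subunit of the heterotrimeric G protein Gq. The DMSO libraries had a usage of 100%, 98.6%, 100% and 99.2%, the LMI070 libraries one of 92.4%, 94.5%, 95.6% and 94.3%, without overlap (log2 difference -3.15, SE 0.78, adjusted p = 0.035). The call was lost with DESeq2, in either lane alone, without a read minimum, without both DMSO replicate 12 and LMI070 replicate 16, and without any of DMSO replicates 9, 11 and 12 or LMI070 replicates 13, 14 and 15. The adjusted p values of the lost calls ranged from 0.056 without LMI070 replicate 15 to 1.00 with DESeq2.

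Its competitor was an unannotated junction of 1458 nt from the same donor, chr9:77920703-77922160. It had no read in the 4 DMSO libraries and 13, 6, 3 and 2 reads in LMI070 replicates 13 to 16. Usage was 7.03%, 4.69%, 3.33% and 2.94% in LMI070. Summed over libraries it was 24 of 471 site reads in LMI070 and 0 of 477 in DMSO, which allows a DMSO share of up to 0.629%. The LMI070 share as counted, 5.10%, is 8.10-fold that limit. The limit covers the counting error of the DMSO zero only. The error of the 24 LMI070 reads and the spread between libraries are not included. The junction passed the minimum of 20 reads through its LMI070 reads alone. It shares the reads of its donor with the long intron, so their calls are not separate results. It was called (log2 difference 5.68, adjusted p = 0.0020), the 1 call among 23 unannotated junctions tested at member sites. Of all 12254 unannotated junctions tested, 0.571% were called higher and 0 lower. Without LMI070 replicate 13 the adjusted p was 0.195, with DESeq2 it was 0.053, without a read minimum it was 0.322, and neither lane alone called it.

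**Figure D5:**
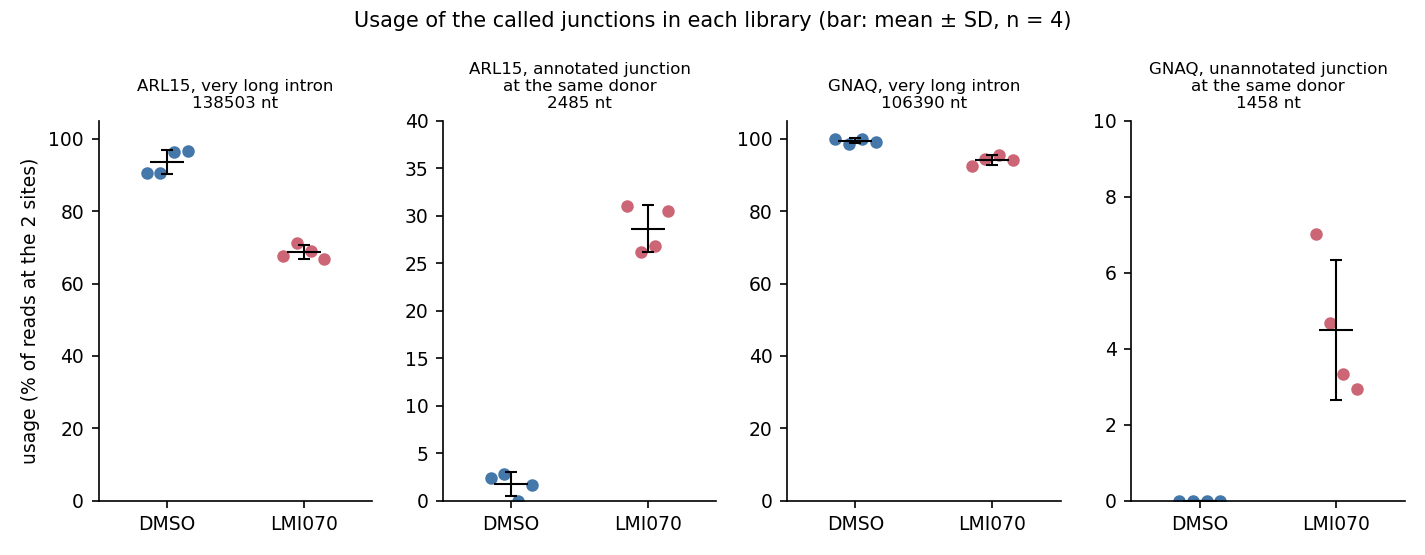
Usage in percent of the reads at a junction's sites (vertical axes, each starting at 0 with its own range) in the 4 DMSO and 4 LMI070 libraries (points; bar, mean ± SD) for the very long introns of ARL15 and GNAQ and for the junction that competes for the same donor. ARL15 falls from about 93.6% to 68.6% as its competitor goes from 1.74% to 28.6%; the GNAQ competitor is at 0 in every DMSO library.

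The unannotated GNAQ junction shows an acceptor inside the long intron, and whether an exon with a donor follows it was not seen. No second junction was seen that would lead on from there to the acceptor of the long intron. From the inner site of the GNAQ junction 104932 nt remain to that acceptor. Unannotated junctions in the files reach 20000 nt and none is longer, while 7563 measure over 18 kb up to that limit. So a new exon inside a very long intron can be read from one side at most, and 0 pairs of unannotated junctions framed an exon of 3 to 500 nt inside a member. GNAQ has another member directly upstream, of 108754 nt. Its usage was 98.5% ± 1.0 in DMSO and 98.5% ± 1.3 in LMI070, and it was not called (log2 difference -0.30, SE 0.89, adjusted p = 1.00).

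Over all members, 1064 unannotated junctions shared a donor or an acceptor with a very long intron, and 490 members had at least 1. They held 3985 reads, 2556 at 616 junctions that share the donor and 1429 at 448 that share the acceptor. A single read supported 551, and 28 had at least 20 reads. Their share of reads at the sites was 2.12% ± 0.18 (SD, n = 4) in DMSO and 2.09% ± 0.09 in LMI070. For 100 reads of the members there were 2.23 unannotated reads at their sites, against 2.87 for introns of 10 to 100 kb, 1.32 for 1 to 10 kb and 0.605 under 1 kb. The limit of 20000 nt cuts off what can be seen in introns longer than that.

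The 8 unannotated junctions with the most reads were read in both groups. The first, chr4:168998286-169002070 in CBR4, had 33, 37, 33 and 41 reads in DMSO and 45, 27, 31 and 26 in LMI070. Its usage was 23.5% ± 2.9 in DMSO and 19.2% ± 2.1 in LMI070 (log2 difference -0.37, SE 0.27, adjusted p = 0.98). The long intron at that donor took 2.92% of the reads at its sites in DMSO. MED13L, a gene for a subunit of the Mediator kinase module, had junctions of 577 nt (142 reads) and 5311 nt (40 reads) at the donor of its intron of 125955 nt. The shorter one took 13.1% ± 0.8 of the site reads in DMSO and 10.2% ± 3.9 in LMI070.

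GPC5, another glypican gene, had one of 8356 nt with 114 reads that took 69.7% ± 16.3 in DMSO, more than the 27.8% of the annotated intron. The rest were in CHD9 (51 reads), CLCN5 (46), FBXL17 (39) and KIAA1328 (38), and none of the 8 was called. With at least 5 reads there were 181 such junctions. Reads in LMI070 libraries alone were found in 7 of them (3.87%; 2.09% of all unannotated junctions of that depth), and in DMSO libraries alone in 3 (1.66%; 1.08% of all). ERC2, a presynaptic scaffold gene, had 2, 5, 2 and 4 reads of one of these in LMI070 and 0 in DMSO, too few for the test.

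Host genes were compared by the summed reads of all their annotated junctions, which cannot tell fewer cells from less RNA per cell. Of 523 host genes tested, 3 were called, all lower, against 18 of 13475 genes (0.134%). Those 18 were mostly lower too, with 3 higher and 15 lower. At an unadjusted p under 0.05 there were 40 higher and 25 lower (12.4% of hosts). Of all genes, 854 were higher and 537 lower at that p (10.3%). The median log2 difference was 0.02 over hosts and 0.00 over all genes.

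PDXDC1, a gene for a pyridoxal-dependent decarboxylase domain protein, had 270.6 ± 4.2 CPM (the gene's reads scaled to the library total; SD, n = 4) in DMSO and 161.4 ± 6.2 in LMI070 (log2 difference -0.74, SE 0.04, adjusted p = 8.9e-10). Its values were 266.4 to 276.4 in DMSO and 156.0 to 170.2 in LMI070, with no overlap. The gene has a close pseudogene copy, so part of its reads may be shared. Its very long intron, which took 13.2% of the reads at its sites in DMSO, had log2 differences of -0.38 (adjusted p = 0.72) in reads and 0.37 (adjusted p = 0.94) relative to the rest of the gene.

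FHOD3, a formin of the actin cytoskeleton, had 78.9 ± 5.6 in DMSO and 62.3 ± 2.3 in LMI070 (log2 difference -0.34, SE 0.05, adjusted p = 0.0044). In lane 7 alone the adjusted p was 0.072. Its intron of 129187 nt had a log2 difference of -0.36 in reads (adjusted p = 0.48) and -0.01 relative to the rest of the gene. DIAPH3, another formin, had 138.1 ± 6.2 in DMSO and 116.7 ± 4.7 in LMI070 (log2 difference -0.24, SE 0.04, adjusted p = 0.021). DIAPH3 was no longer called without the lane term (adjusted p = 0.113), in lane 7 alone, without both DMSO replicate 12 and LMI070 replicate 16, or without any of DMSO replicates 9 and 10 and LMI070 replicates 13, 14 and 16.

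A list of 45 genes with drug-dependent exons was drawn up from earlier results of these data, and 9 of them host 10 members: TCF12, PDXDC1, FHOD3, TIAM1, DYRK1A, LIMCH1, ARL15, WDR27 and ASAP1. None of the 10 was called in the tests of reads. In usage 8 of the 10 were tested, all but the WDR27 intron and the longer ARL15 intron, and the shorter ARL15 intron was the 1 call. The intron of TIAM1, which encodes an activator of the GTPase Rac, took 53.8% ± 7.3 of its site reads under DMSO against 40.5% ± 12.6 under LMI070 (adjusted p = 0.98).

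Lists of genes by role held some of the hosts, while most members were in none of them. Cell adhesion, receptor and channel genes gave 34 members in 23 of the 78 genes listed, with a median ratio of 0.976. Transcription and chromatin genes gave 46 in 33 hosts, with 0.928. GTPase regulators, kinases and phosphodiesterases gave 50 in 35 hosts, with 0.589. Cytoskeleton, scaffold and traffic genes gave 40 in 25 hosts, with 0.737. RNA-binding protein genes gave 9 in 6 hosts, with 1.04, and common fragile site genes gave 11 in 7 hosts, with 1.16. In none of these lists was a member called in reads, and the median log2 differences lay between -0.07 and 0.04. The lists were written with earlier results of these data known.

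Of a list of 44 factors that act on elongation, topology or splicing of long transcripts, all but U2AF1, with too few reads, were tested, MATR3 under 2 gene IDs. XRN2, the nuclear exonuclease of transcription termination, was the 1 called gene: 596.2 ± 13.5 CPM in DMSO and 388.0 ± 8.5 in LMI070 (log2 difference -0.62, SE 0.04, adjusted p = 3.6e-09). At an unadjusted p under 0.05, 11 were higher and 1 lower, and the median log2 difference was 0.03. Over all 13475 genes tested, 854 were higher and 537 lower at that p, with a median of 0.00. HNRNPA1 (0.14), TOP2A (-0.04), HNRNPU (0.02) and DHX9 (0.02), the 4 with the highest levels, were not called.

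The libraries held 20369466 to 36131054 uniquely mapped junction reads. DMSO replicate 12 and LMI070 replicate 16 stood furthest from the others over well-read genes, with mean log2 distances of 0.188 and 0.194 against 0.143 to 0.174. Without both, no member was called in either test of reads, ARL15 was called in usage with an adjusted p of 0.0049 and GNAQ was not (0.166). Counts of member reads in pairs of replicates had a chi-square per degree of freedom of 1.11 to 1.78, where counting error alone gives about 1. Markers of the line were present, with 9 of 10 over 1 CPM (VIM 760.9, KRT8 282.2, CDH2 238.8 in DMSO). Summed over their lists, markers of blood, hepatocytes and keratinising epithelium came to at most 0.882 CPM in any library. Fibroblast markers came to 22.1 to 26.9 in DMSO and 25.0 to 34.0 in LMI070, nearly all from COL1A1, and their part in the comparisons was not tested.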

How the data were processed

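The authors deposited, for each of 8 libraries, a table of splice junctions with counts of uniquely and multiply mapped reads. Per the submitters' processing notes these come from STAR 2.6.0c on GRCh38, and per the labels' protocols from stranded, ribosome-depleted total RNA. Alignment settings are not given in the sources used here. Uniquely mapped counts were used as deposited, without correction for junction mappability, and reads without molecular identifiers are not independent molecules. Junctions were matched to GENCODE 29 introns by coordinates. The following 4 kinds of counts were tested with edgeR 4.0.16 (quasi-likelihood, lane as a term, R 4.3.3) and Benjamini-Hochberg adjustment over the whole table, with calls at an adjusted p under 0.05: reads per annotated junction and per gene (TMM scaling), and reads against the rest of the host gene or of the sites (a coefficient per library). Junctions needed 20 reads over all libraries. DESeq2 1.42.0 was an alternative. Other alternatives were scaling, read minimums, multiply mapped reads, no lane term, each lane alone and libraries left out. Tested on simulated data, 82% to 100% of 2-fold changes were recovered, with 1 to 8 false calls per test. The changed features had a mean of at least 20 reads per library, and of as many competing reads where these were used. That is deeper than most members. The simulated counts held no lane effect. Their spread between libraries was fixed for reads and genes, and only counting error in the tests against the host gene or the sites. These rates therefore need not hold for the real libraries. Members named were the 10 with most reads, the 8 longest, the 6 highest and 6 lowest ratios, hosts with most members, calls, the 8 most-read unannotated junctions and those beside a threshold. Some items that fall under this rule are not reported here. Other names were chosen after their values were seen, or by the roles of hosts. The members and lists were chosen with earlier results of these data known.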

Additional observations from a re-analysis of the deposited data

How the results depend on the processing

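Direction was compared between alternatives only for the called introns, junctions and host genes, XRN2, and the MRPS28 and DYNC1I1 introns. None of these changed direction. They were picked for their small p values, so this does not speak for the other members. The test relative to the host gene called 0 members in each alternative. Medians near 0 did change sign: that of member reads, 0.01 in log2, was -0.01 with DESeq2 and in lane 7 alone and -0.03 in lane 8 alone, and that of the hosts, 0.02, was -0.01 in lane 8 alone. The test of reads called 0 members, and 1 (DYNC1I1) without LMI070 replicate 14 (0 to 1 over the libraries left out in turn). Of the usage calls, 2 among members became 1 with DESeq2, in lane 7 alone, without a read minimum and without both libraries that stand apart (chosen after seeing the data), and 0 in lane 8 alone. Leaving out each library gave 1 to 2. The 1 call among unannotated junctions became 0 with DESeq2, in either lane alone, without a read minimum, with a minimum of 50 reads, which its 24 reads miss, and ranged from 0 to 1 over the libraries left out, with 0 without LMI070 replicate 13. At a length of at least 150 kb the calls in usage, of members, of unannotated and of other annotated junctions, are 0 by construction, since both called introns are shorter. Called host genes, 3 in all libraries, numbered 23 in lane 7 alone, 5 in lane 8 alone, 12 without a read minimum, and 2 to 3 over the libraries left out. Calls over all genes moved too, from 18 of 13475 to 551 of 13501, 51 of 13577 and 264 of 21084 in those 3 settings. Over all introns in place of those in at least 50% of transcripts, a choice made after seeing the data, the share with a ratio of at least 0.1 went from 91.3% to 37.4% at 1 boundary, from 91.7% to 41.1% at 2, from 3.03% to 2.21% at 3 and from 0% to 0.498% at 4 or more. The median ratio of 0.70 was 0.820 where each junction needed at least 100 reads. In all, 80 of these summary values were taken as the same and 25 as moved. A count within 1.5-fold of the main one was taken as the same, so 2 called host genes in place of 3 did not count as moved. A median ratio was taken as the same if it differed by less than the larger SD between libraries. Apart from the length and read minimums above, the cause of the moves was not tested. No paired analysis was possible because the groups share no replicate numbers. Depth limits members under 100 reads most, and unannotated exons inside a long intron can be seen from one side at most.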
